A study of Mus musculus with 2 samples.

Results

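The respiratory chain of mitochondria is assembled from proteins of 2 genomes, and the set described here is the part encoded in the nucleus. Its members were the genes whose symbol starts with Nduf, Uqcr, Cox4 to Cox8 or Atp5. This rule used names and no measured value, but was chosen with earlier results of these data known. It took 88 of the 27998 genes listed. By role they were 36 subunits of complex I, 7 complex I assembly factors, 8 subunits of complex III, 19 subunits of complex IV with their tissue isoforms, 15 subunits of the ATP synthase, the supercomplex factor Cox7a2l, and Atp5s and Atp5sl, which carry the ATP synthase name without being subunits. The 13 protein genes of the mitochondrial genome (mt- genes) were set beside them. The members lie on 19 chromosomes, by GENCODE coordinates found for 88 of 88.

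Complex I (NADH dehydrogenase) and complex III pass electrons along the inner membrane to complex IV (cytochrome c oxidase), which reduces oxygen, and the ATP synthase uses the proton gradient that these pumps build. The mt- genes encode core membrane subunits of these complexes, among them the ones that bind the copper and heme of complex IV, while the other subunits, which include the flavin and iron-sulfur subunits of complex I and the catalytic beta subunit of the ATP synthase, and the assembly factors are nuclear. Resting lymphocytes carry little of this machinery, and T cells enlarge it when they are activated and divide. Complex IV has isoforms of several subunits that differ between tissues, among them a form of subunit 6A (Cox6a2) known from heart and skeletal muscle and a form of subunit 7A (Cox7a2) known from most other tissues.

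The study sorted live CD45+ cells, that is leukocytes, from subcutaneous tumors of B16, a mouse melanoma line, and sequenced them as 2 libraries with the 10x Genomics 3' method. Hosts in both groups were C57bl/6j mice, 6 to 8 weeks old, in which LAIR1-/- removed the mouse receptor and a human LAIR1 transgene under Vav-cre, a driver active in blood cells, supplied the human one. LAIR1 is an inhibitory collagen receptor of leukocytes. One group received anti-LAIR1 and the other the control antibody (Iso-ctrl). Per the methods of the study the antibody was dosed at 10 mg/kg from day 5, every 4 days for 3 doses, and tumors were collected on day 16. Each group was a single library and the number of mice behind it was not given in the sources used here, so no difference between the groups could be tested. Ratios below are anti-LAIR1 over Iso-ctrl, and intervals (95%, exact Poisson for levels, exact binomial for shares and ratios) cover counting error only.

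A unique molecular identifier (UMI) counts 1 captured molecule at its 3' end, so levels, given in counts per 1e+06 UMIs of the same cells (CPM) or as percent of all UMIs, are per molecule and need no division by gene length. The anti-LAIR1 library held 8807 barcodes and 48834592 UMIs and the Iso-ctrl library 6133 barcodes and 40339654 UMIs. After filters on genes, UMIs, mitochondrial share (under 10%) and doublet score, 6858 and 5327 cells were kept. Barcodes at 10% or more mitochondrial UMIs were 15.2% of the anti-LAIR1 library and 8.17% of the Iso-ctrl library, and the median mitochondrial share of kept cells was 4.37% and 3.70%. The libraries shared 13 barcodes. Cells were named by marker UMIs alone, which placed 5881 and 4434 cells (85.8% and 83.2%) in a gate. The 14 gates compared were B, CD4 naive, CD8 naive, CD4 experienced, CD8 experienced, Treg, NK, plasmacytoid dendritic cell (pDC), conventional dendritic cell (cDC), C1q macrophage, Monocyte, Other monocyte or macrophage, Neutrophil and Melanoma, of 24 to 2246 cells each. A further 1169 and 930 T cells met neither the naive nor the experienced rule or could not be called CD4 or CD8, and they count in all gated cells (20.85% and 22.6% of UMIs) and in the lymphocyte gates as a whole (27.1% and 28.6%) but in none of the 14, as do 1 and 2 plasma cells in all gated cells. Naive and experienced T cells were told apart by naive markers that included Lef1 and Ccr7 against S100a4, Ccl5, Nkg7, Cxcr6, Icos, Pdcd1, Id2 and Gzmb. Of 28 pairs of a gate and a further marker gene, 25 had the gene highest in its own gate. The Melanoma gate went against the CD45+ sort, with Ptprc (which encodes CD45) at 8.40 and 8.24 CPM, and 89.5% and 93.7% of its UMIs came from 5 deep cells in each library.

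The start regions of 6 members on which the results below turn are shown first. They are Cox6a1 and Cox7a2, the common partners of isoform pairs, Cox7a2l, which ran against the rest of the set, and Uqcr11, Ndufs7 and Ndufb3, which were among the members most above 1 in lymphocytes. Each window runs from 250 bases before the start of the gene to 50 after it (RefSeq, GRCm38.p6), 5′ to 3′ on the strand of the gene. Windows were at hand for 70 of the 88 members. Capitals mark matches, on either strand, to the letters GCGCATG (the core of the NRF1 palindrome, a factor known to bind genes of the respiratory chain), CCGGAAG (ETS family), AAGATGG (YY1) or TATAAA. The NRF1 letters can overlap their own match on the other strand. The windows are Cox6a1 at chr5:115348909-115349208 (minus strand, NRF1 letters on both strands at 1 place, and ETS letters), Cox7a2 at chr9:79759804-79760103 (minus, none), Cox7a2l at chr17:83514284-83514583 (minus, none), Uqcr11 at chr10:80406772-80407071 (minus, NRF1 and ETS letters), Ndufs7 at chr10:80249199-80249498 (plus, YY1 and TATAAA letters) and Ndufb3 at chr1:58586147-58586446 (plus, none).
Cox6a1: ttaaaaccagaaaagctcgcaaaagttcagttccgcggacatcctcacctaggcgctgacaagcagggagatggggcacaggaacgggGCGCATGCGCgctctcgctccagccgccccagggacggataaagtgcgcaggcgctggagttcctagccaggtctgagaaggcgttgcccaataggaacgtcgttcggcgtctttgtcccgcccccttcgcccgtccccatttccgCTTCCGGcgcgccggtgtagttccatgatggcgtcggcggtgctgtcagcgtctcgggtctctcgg
Cox7a2: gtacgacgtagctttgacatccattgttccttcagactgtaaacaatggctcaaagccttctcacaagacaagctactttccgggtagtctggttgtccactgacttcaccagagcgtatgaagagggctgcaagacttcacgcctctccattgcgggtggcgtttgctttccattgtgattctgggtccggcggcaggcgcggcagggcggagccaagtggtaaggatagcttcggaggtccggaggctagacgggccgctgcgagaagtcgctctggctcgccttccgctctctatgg
Cox7a2l: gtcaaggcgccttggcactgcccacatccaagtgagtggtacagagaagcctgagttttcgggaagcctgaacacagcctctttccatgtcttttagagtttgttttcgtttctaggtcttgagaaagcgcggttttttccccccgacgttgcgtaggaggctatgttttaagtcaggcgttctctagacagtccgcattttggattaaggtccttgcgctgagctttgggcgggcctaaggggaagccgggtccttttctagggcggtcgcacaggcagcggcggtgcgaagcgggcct
Uqcr11: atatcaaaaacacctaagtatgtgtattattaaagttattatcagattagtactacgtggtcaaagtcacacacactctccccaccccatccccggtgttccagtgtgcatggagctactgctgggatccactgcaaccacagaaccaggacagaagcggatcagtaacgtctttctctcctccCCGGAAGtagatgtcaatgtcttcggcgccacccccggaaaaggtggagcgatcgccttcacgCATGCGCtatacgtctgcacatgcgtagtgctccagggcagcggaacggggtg
Ndufs7: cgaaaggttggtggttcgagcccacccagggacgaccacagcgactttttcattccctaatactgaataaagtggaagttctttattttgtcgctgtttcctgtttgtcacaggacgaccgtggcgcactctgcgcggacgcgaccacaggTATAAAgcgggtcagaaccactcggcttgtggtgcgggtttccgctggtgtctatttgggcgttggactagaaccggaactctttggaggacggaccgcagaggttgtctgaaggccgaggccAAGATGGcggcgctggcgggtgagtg
Ndufb3: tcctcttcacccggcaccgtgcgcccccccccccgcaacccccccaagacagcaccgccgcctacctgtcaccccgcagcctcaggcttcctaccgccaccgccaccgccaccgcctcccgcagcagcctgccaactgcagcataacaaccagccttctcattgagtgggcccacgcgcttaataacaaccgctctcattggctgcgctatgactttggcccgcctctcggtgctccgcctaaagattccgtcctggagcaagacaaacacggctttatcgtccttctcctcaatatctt

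Over the 70 windows the NRF1 letters stood in 14 (20%), against 4.41% of the 27025 gene starts of the same length. The ETS letters stood in 15 (21.4%, against 9.93%) and the YY1 letters in 10 (14.3%, against 7.28%). TATAAA was found in 7 (10%, against 15.7%). These shares describe letters in the windows and say nothing about binding.

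Members differed first by how much of them each complex held. Of the 88 genes, 83 reached 50 UMIs over both libraries in all gated cells and are called measured here. The highest levels were those of small subunits, Cox4i1 of complex IV at 708.8 and 680.9 CPM (anti-LAIR1 and Iso-ctrl), Atp5e of the ATP synthase at 685.7 and 613.5 CPM, and Uqcrh, the hinge protein of complex III, at 672.1 and 656.8 CPM. Complex I subunits were lower, the highest mean level over the libraries being 263.4 CPM (Ndufa2) and the median 96.7 CPM, against medians of 157.6 CPM in complex III, 239 CPM in the ATP synthase and 281.9 CPM in complex IV. The 7 assembly factors, which build complex I and are not part of it, had a median of 11.4 CPM. Cox7b2, Cox8b, Cox8c and Ndufa4l2 had no UMI in gated cells of either library, which allows at most 0.107 CPM (anti-LAIR1) and 0.123 CPM (Iso-ctrl), and Cox4i2 had 5 and 2 UMIs.

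The summed level differed more between cell types than between the antibodies. In Iso-ctrl the set took 4.67% of UMIs in the Melanoma gate, between 1.50% and 2.13% in the C1q macrophage, Monocyte, pDC, Treg, cDC, NK, Other monocyte or macrophage, CD4 experienced and CD8 experienced gates, between 1.13% and 1.18% in the CD8 naive, CD4 naive and B gates, and 0.701% in neutrophils. In anti-LAIR1 the same blocks held, with 4.86% in the Melanoma gate, 1.64% to 2.20% in the middle block, 1.32% to 1.36% in naive T and B cells and 1.07% in neutrophils. Within the middle block the order was not the same in the 2 libraries. The pDC gate stood first of the immune gates in anti-LAIR1 (2.20%, interval 2.15% to 2.253%), and behind C1q macrophages and monocytes in Iso-ctrl (1.96%). Cox6a2 of complex IV alone gave 1745 and 1662 CPM of the pDC level. In anti-LAIR1 the pDC gate was above C1q macrophages in complex IV (0.7565% against 0.6245%). It was below them in complex I (0.584% against 0.590%) and in the ATP synthase (0.579% against 0.6275%). Of the measured members, 71 of 83 were highest in the Melanoma gate in both libraries and 73 were higher in monocytes than in B cells in both. The shares of all genes with these patterns were not counted, so the counts are not read as particular to the set. Ribosomal protein genes took 32.1% and 30.7% of UMIs in B cells against 19.3% and 19.65% in monocytes, which bears on every other level there. The high Melanoma levels rest on the 5 deep cells named above.

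**Figure D1:**
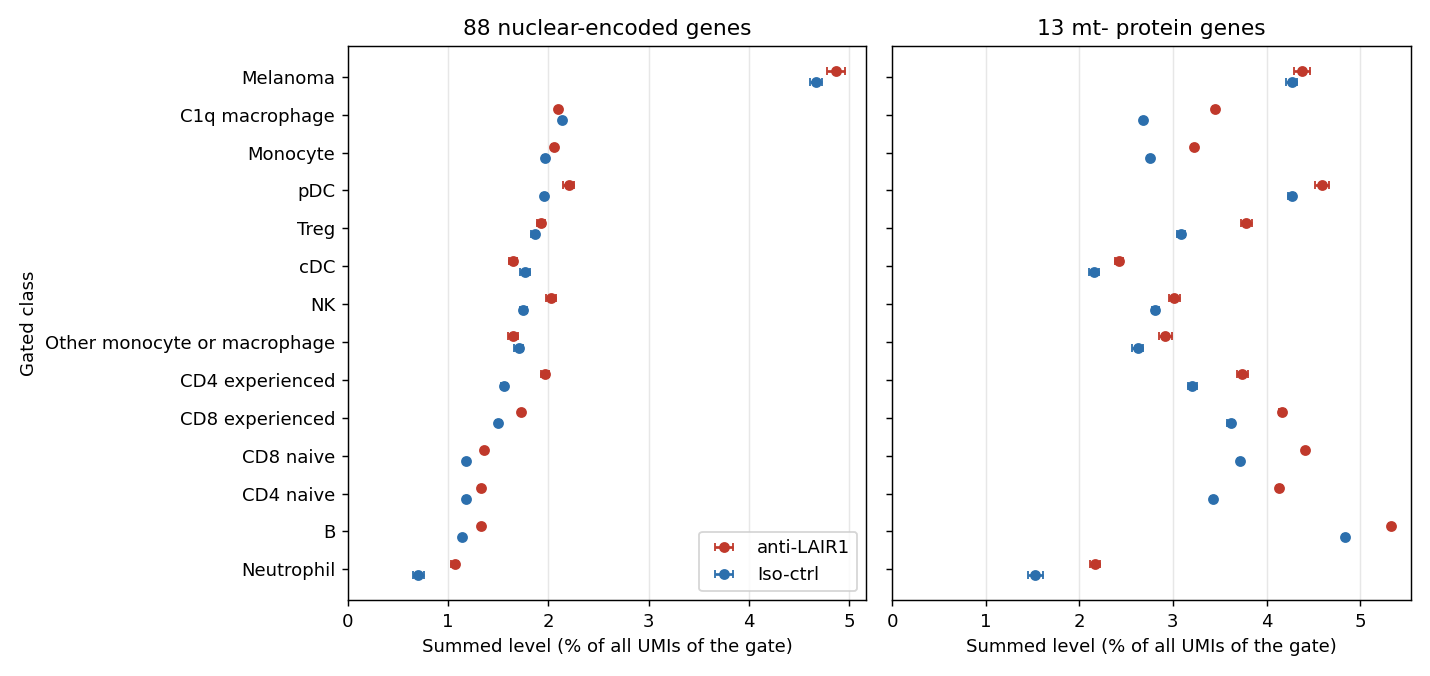
Summed level of the nuclear-encoded members and of the 13 mt- protein genes as percent of all UMIs (x axis) in each of the 14 gates (y axis), with 1 point per library and 95% intervals for counting error. Melanoma cells lie far to the right for the nuclear set (4.86% and 4.67%), naive T and B cells lie between 1.13% and 1.36%, and B cells hold the highest mt- level (5.33% and 4.84%).

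Single members followed the block order to unequal degrees. Over the 73 members at 20 CPM or more with UMIs in every gate, the highest of 12 immune gates (neutrophils left out) was a median 2.15 times the lowest, on the mean level of the 2 libraries. With the small neutrophil gate the median was 3.24 times. Without neutrophils Ndufa6, an accessory subunit of complex I, was the flattest at 1.37 times, followed by Uqcrfs1, the Rieske iron-sulfur protein of complex III (1.47), and Uqcrh (1.51). With neutrophils these came to 2.42, 3.30 and 2.71 times, and Ndufs7 was the flattest (1.72). Ndufa6 stood at 156.2 and 76.9 CPM in neutrophils, 245.7 and 215.2 CPM in B cells, 290.4 and 273 CPM in monocytes and 340.3 and 323.6 CPM even in the Melanoma gate. At the other end, without neutrophils, stood Atp5sl (4.45 times), Ndufc1 (3.52) and Ndufb8 (3.51) of complex I and Uqcrb of complex III (3.46). Ndufa4, once assigned to complex I and now placed in complex IV, ranged from 32.9 CPM in Iso-ctrl neutrophils (3 UMIs) and 157 CPM in Iso-ctrl B cells to 2307 CPM in anti-LAIR1 Melanoma cells.

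**Figure D2:**
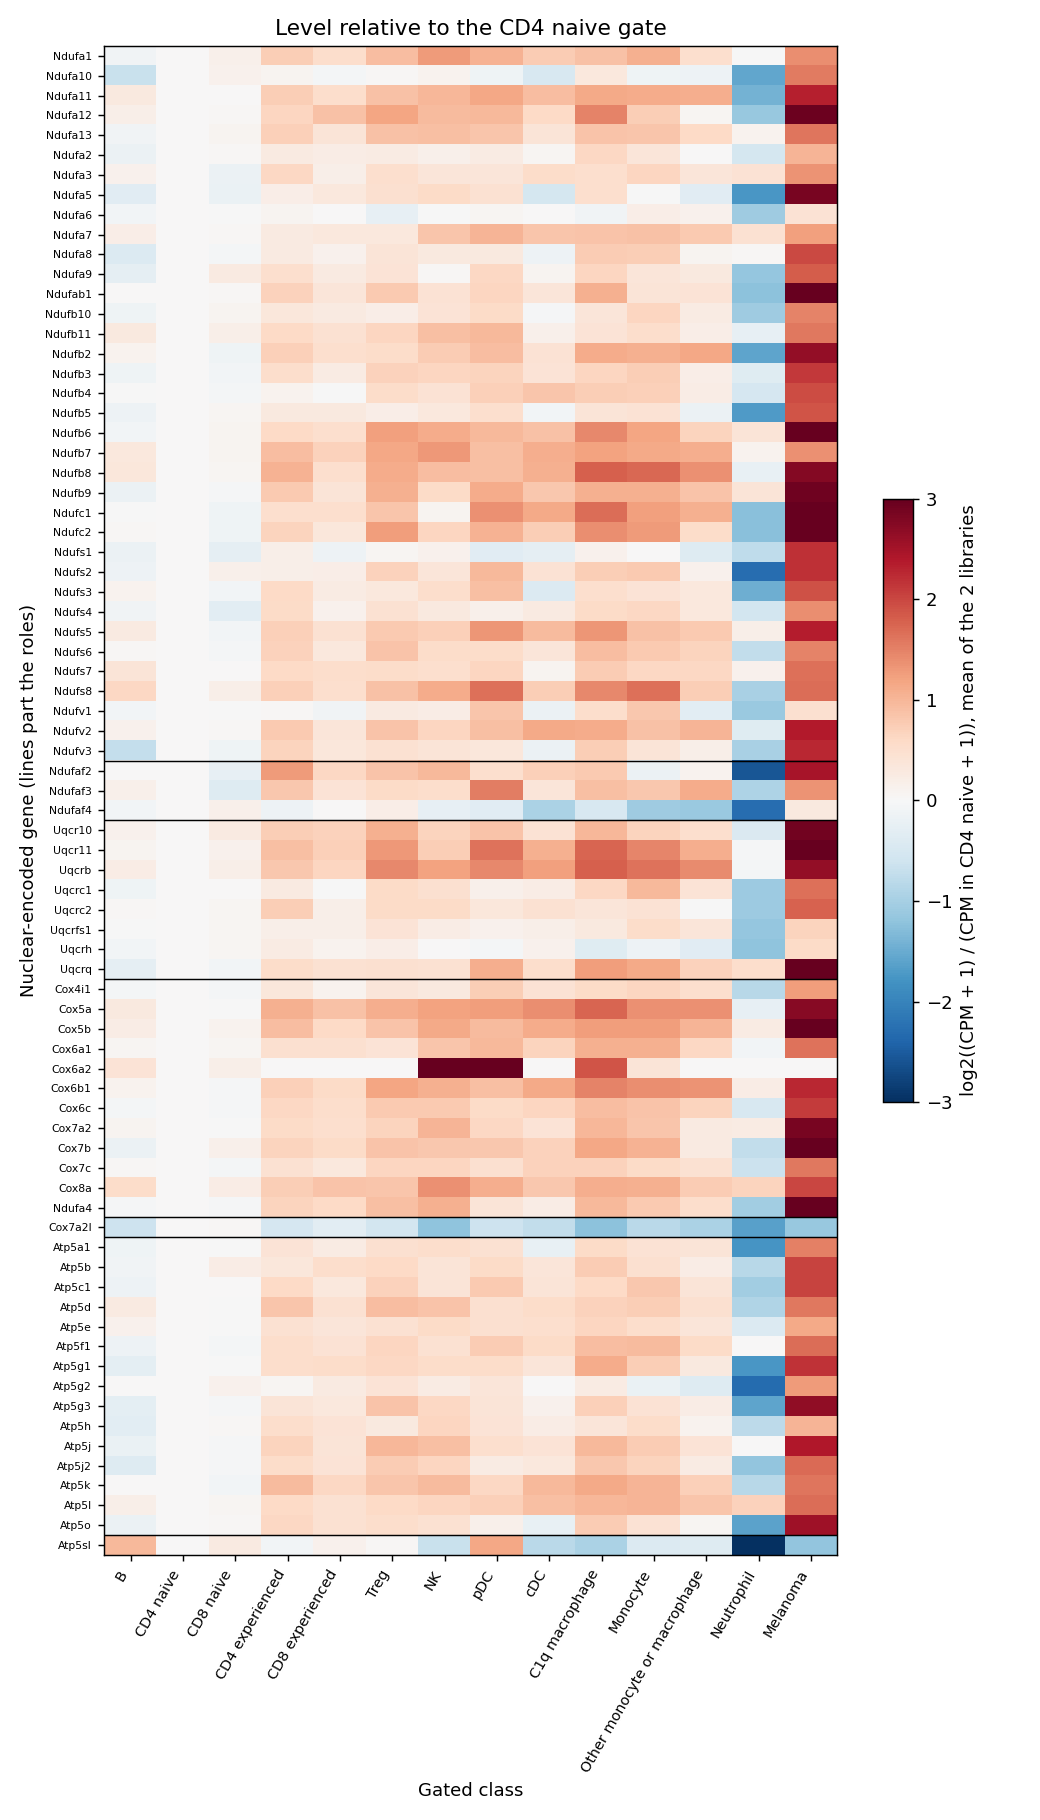
Level of each member with at least 1000 UMIs (rows, grouped by complex) in each gate (columns), as log2 of its CPM + 1 over its CPM + 1 in CD4 naive cells, the mean of the 2 libraries. The Melanoma column is high for nearly every row, Cox6a2 stands out in the pDC column alone, and Cox7a2l is the row that is lower in most columns than in CD4 naive cells.

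The mt- genes did not share the order of the nuclear set. B cells, among the lowest for the nuclear set, were the highest for mt- UMIs, and each nuclear UMI was accompanied by 4.03 and 4.27 mt- UMIs there. In CD8 naive cells the value was 3.24 and 3.15 and in CD4 naive cells 3.12 and 2.92, while it was 2.41 and 2.41 in CD8 experienced cells, 1.90 and 2.06 in CD4 experienced cells and 1.96 and 1.66 in Treg. Monocytes had 1.57 and 1.40, C1q macrophages 1.64 and 1.26, and NK cells 1.49 and 1.61. The Melanoma gate was the only gate with fewer mt- than nuclear UMIs in both libraries, at 0.900 and 0.915. The limit of 10% on mitochondrial UMIs cut the same genes, so the mt- values are those of cells that passed it.

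Inside T cells the set was higher in experienced than in naive cells of the same library, and so were most single members. The summed level in CD8 experienced over CD8 naive cells was 1.27 (interval 1.252 to 1.287) in anti-LAIR1 and 1.27 (1.246 to 1.294) in Iso-ctrl, from 223 against 785 and 120 against 496 cells. Of 74 members with 50 UMIs in each library, 34 were higher by at least 25% in both libraries, where 17.6% of all 6258 genes were, and 0 were lower by at least 20% in both, where 6.98% of all genes were. These limits are called the fold below. The median log2 ratio of the members was 0.37 in anti-LAIR1 and 0.39 in Iso-ctrl, beside 0.09 and 0.11 over all genes. The mt- genes did not move with them, at 0.943 and 0.973, and ribosomal protein genes stood at 0.898 and 0.862.

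Ndufa12 of complex I and Cox5a of complex IV led when members were ordered by the lower of their 2 ratios. Cox5a stood at 283 CPM in CD8 experienced against 145 CPM in CD8 naive cells of anti-LAIR1 (1.95 times) and at 202 against 116 CPM in Iso-ctrl (1.73 times). Ndufa12 was at 1.82 and 1.785 times, Atp5k of the ATP synthase at 1.68 and 1.58, and Ndufa4 at 1.52 and 1.61. Uqcrh (1.04 and 1.03) and Ndufa6 (0.978 and 1.06), flat outside neutrophils, hardly differed between naive and experienced cells.

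CD4 cells and Treg showed the same direction. CD4 experienced over CD4 naive cells gave 1.48 and 1.33 for the nuclear sum and 0.904 and 0.936 for the mt- sum. Of 73 members, 42 were higher by the fold in both libraries (27.1% of all genes) and 1 was lower (10.2%). Ndufb7 of complex I led at 1.78 and 2.10 times, with Atp5d, the delta subunit of the ATP synthase, at 1.79 and 1.76, Ndufb8 at 2.40 and 1.74 and Cox5a at 2.44 and 1.73. Treg over CD4 naive cells gave 1.45 and 1.59 for the nuclear sum, and 52 of 73 members were higher in both libraries (30.7% of all genes) and 1 lower (10.9%). There the complex III subunits Uqcrb, at 2.575 and 2.91 times, and Uqcr11, at 2.26 and 2.86 times, led with the complex I subunits Ndufa12 (2.285 and 2.33) and Ndufc2 (2.22 and 2.64), and Cox5a was at 2.06 and 2.21.

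Dividing lymphocytes were read in the same way, against all other lymphocytes and without matching by gate. The part of cell type and activation in these ratios was not tested. T, B and NK cells with 2 or more UMIs over Mki67, Top2a, Birc5 and Ube2c (109 and 110 cells) held 1.61 and 1.49 times the nuclear sum of the other lymphocytes, and 65 of 79 members were higher in both libraries (25.6% of all genes) and 0 lower (11.9%). Ndufaf2, an assembly factor, was at 3.13 and 3.75 times, Uqcr11 at 2.63 and 2.33, Atp5j of the ATP synthase at 2.03 and 2.00, and Cox5a at 2.54 and 1.93. The mt- sum was 0.826 and 0.879, below that of non-dividing cells. In these contrasts ribosomal protein genes took 0.666 to 0.898 of their naive or non-dividing share. With mt- and ribosomal UMIs left out of the total, the nuclear sums of experienced over naive cells were smaller and still above 1, from 1.13 in CD4 cells of Iso-ctrl to 1.28 in Treg of Iso-ctrl.

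Cox7a2l is known as a supercomplex factor for complexes III and IV, a role that was not measured in these mice. It was the 1 measured member of 83 that was higher in naive than in experienced cells of both T lineages in both libraries. It stood at 584 and 630.5 CPM in CD8 naive cells and at 577 and 608 CPM in CD4 naive cells, above every other gate. It was at 374 and 391 CPM in B cells, 231 and 275 CPM in C1q macrophages, 269 and 266 CPM in the Melanoma gate and 193 and 187 CPM in neutrophils. CD4 experienced over naive cells gave 0.617 and 0.792, Treg over CD4 naive cells 0.637 and 0.725, CD8 experienced over naive cells 0.810 and 0.767, and dividing over other lymphocytes 0.655 and 0.832. It was the member called lower in the CD4 and Treg contrasts. Its relative Cox7a2, a subunit of complex IV, had the opposite order, with 235 and 188 CPM in CD8 naive cells, 457 and 423 CPM in NK cells and 1513 and 1610 CPM in the Melanoma gate.

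Cox6a2 was the member bound to 1 cell type. It lies at chr7:128205435-128206387 on the minus strand. The pDC gate held it at 1745 CPM in anti-LAIR1 (554 UMIs) and 1662 CPM in Iso-ctrl (1893 UMIs), and the next gate, NK, at 3.41 and 10.8 CPM. The NK values rest on 1 UMI in 1 of 57 cells of anti-LAIR1 and 7 UMIs in 1 of 107 cells of Iso-ctrl. A Cox6a2 UMI was found in 33 of 34 pDC (97.1%) and in 94 of 95 (98.9%), and in 85.3% and 74.5% of them once each cell was thinned to 1000 UMIs. In B cells, with median depths of 3515.5 and 4258 UMIs beside 9250 and 12168 in pDC, it was found in 1 of 2246 (0.0445%) and 4 of 1657 (0.241%) cells. Of all Cox6a2 UMIs in kept cells, 85.5% and 95.1% lay in the pDC gate, and cells without a gate held 81 and 81 of the UMIs. Its partner Cox6a1 was still present in pDC at 346 and 314 CPM, at the upper end of the other immune gates (162 to 355 and 154 to 358 CPM). Cox6a2 made up 83.4% (80.4% to 86.2%) and 84.1% (82.5% to 85.6%) of the UMIs of the pair in pDC. The 2 forms together came to 2091 and 1977 CPM there.

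**Figure D3:**
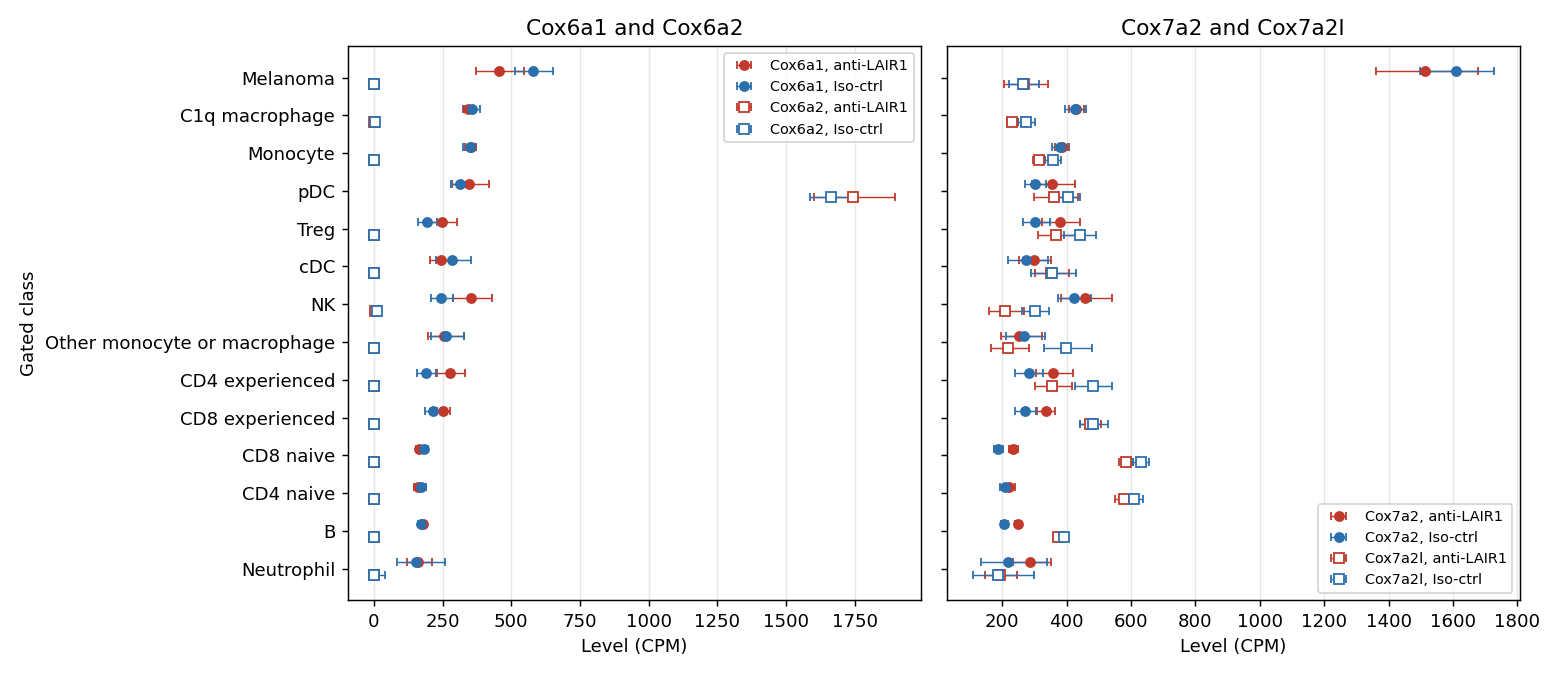
Levels in CPM (x axis) of Cox6a1 and Cox6a2, and of Cox7a2 and Cox7a2l, by gate, with 1 point per library. Cox6a2 is at 1745 and 1662 CPM in pDC and at 10.8 CPM or less elsewhere, and Cox7a2l is highest in the naive T gates while Cox7a2 is highest in the Melanoma gate.

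The other isoforms were sparse or mixed. Cox6b2, a form known from testis, had 71 and 53 UMIs in gated cells and 40 and 23 in cells without a gate, and 21 of 323 monocytes (6.50%) and 17 of 177 (9.60%) held 1 or more. Cox7a1, the heart and muscle form of subunit 7A, had 65 and 31 UMIs in gated cells and stood at 9.46 and 6.17 CPM in C1q macrophages. The c-ring protein of the ATP synthase is encoded by 3 genes with the same mature product, and Atp5g2 supplied 52.6% and 54.2% of their UMIs, Atp5g1 26.6% and 23.4% and Atp5g3 20.8% and 22.4%. The Atp5g2 share was 59.7% and 62.7% in B cells, 41.6% and 42.7% in monocytes and 28.7% and 44.4% in the Melanoma gate.

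The comparison of the 2 antibodies was made over all gated cells and then by gate. In all gated cells the nuclear set took 1.57% of UMIs in anti-LAIR1 and 1.44% in Iso-ctrl, a ratio of 1.085 (1.081 to 1.089), and the mt- genes 4.27% and 3.75%, a ratio of 1.14 (1.137 to 1.142). Ribosomal protein genes were at 33.3% and 32.65%, a ratio of 1.02. By complex the ratio was 1.13 for complex I, 1.07 for complex III, 1.07 for complex IV and 1.08 for the ATP synthase. Of the 83 measured members 78 lay above 1, where 57.3% of all 11909 genes tested did. The median ratio of the members was 1.11 (median log2 0.15, beside 0.05 over all genes). The intervals of 65 members excluded 1 from above and those of 3 from below (Cox6a2, Atp5sl and Cox7a2l). The share of all genes with such intervals was not counted, and counting intervals are narrower for abundant genes. All 36 complex I subunits, 7 assembly factors and 8 complex III subunits lay above 1.

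Few members passed the fold. In all gated cells 11 of 83 were higher by it, where 20.6% of all genes were, and 1 of 83 was lower, where 12.6% of all genes were. Among genes with 1000 or more UMIs the counts were 9 and 1 of 76, beside 10.3% higher and 10.3% lower over all such genes. The members' share past the fold was thus near or below that of all genes, while most of their ratios were small and above 1. The Melanoma gate gave 2.15% of the member UMIs in anti-LAIR1 and 5.21% in Iso-ctrl, and the ratio of the nuclear sum without it was 1.11. Without the T cells of no subclass it was 1.07. Stress genes of tissue dissociation were lower in sum in anti-LAIR1 (10 genes, 1 higher and 6 lower by the fold, summed ratio 0.848), with Hspa1b at 0.402, Hspa1a at 0.415, Jun at 1.13 and Fos at 1.52, and the part of cell handling in these ratios was not tested.

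Among members with at least 100 UMIs the 5 highest ratios belonged to genes of complex I. Ndufaf6, an assembly factor, was at 7.09 CPM in anti-LAIR1 and 4.09 CPM in Iso-ctrl, a ratio of 1.74 (1.39 to 2.17). The assembly factor Ndufaf3 was at 18.8 and 13.02 CPM, a ratio of 1.44 (1.27 to 1.64). Ndufs7, an iron-sulfur subunit of the electron path, was at 86.7 and 63.5 CPM (1.36, 1.29 to 1.45), Ndufaf2 at 18.9 and 14.1 CPM (1.34), and Ndufs5 at 110.4 and 82.6 CPM (1.34, 1.27 to 1.41). The sparse Cox7a1, at 65 and 31 UMIs, gave 1.835 (1.18 to 2.91). Outside complex I the highest were Atp5k at 196.5 and 148 CPM (1.33), Uqcr11 at 151.4 and 116.6 CPM (1.30) and Ndufa4 at 309.9 and 242.6 CPM (1.28). The most abundant subunits lay closer to 1, with Cox4i1 at 1.04, Cox8a at 1.07, Uqcrh at 1.02, Uqcrq at 1.05, Ndufa2 at 1.12, Ndufa6 at 1.06, Atp5e at 1.12 and Atp5l at 1.08. Atp5b, the catalytic beta subunit of the ATP synthase (358.7 and 359.4 CPM), was at 0.998 and Atp5g3 at 0.980 (0.944 to 1.02), with intervals that hold 1. Atp5sl, at 39.8 and 45 CPM, was at 0.884 (0.819 to 0.953).

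**Figure D4:**
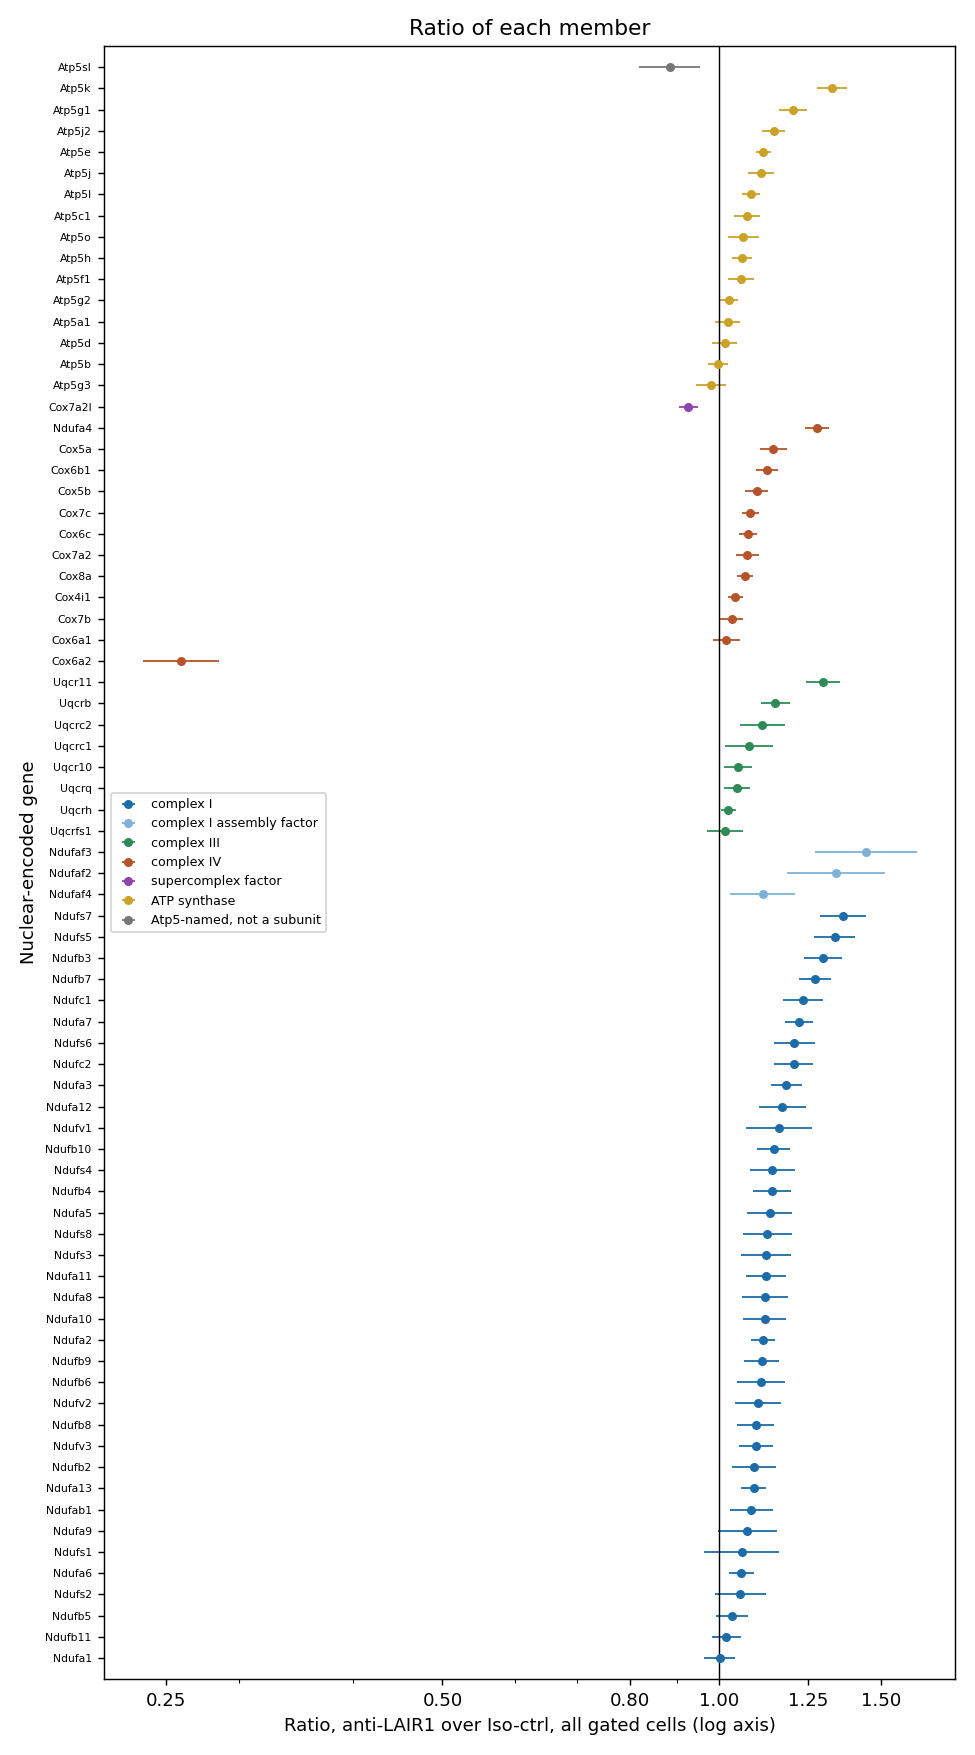
Ratio of the level in anti-LAIR1 over Iso-ctrl in all gated cells (log axis) for each member with at least 1000 UMIs, grouped by complex, with 95% counting intervals. Sparser members, such as Ndufaf6 and Cox7a1, are not drawn. Most points lie above 1, and Cox6a2, Atp5sl and Cox7a2l have intervals below 1.

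Cox6a2 had the lowest ratio of the set, and pDC cells were fewer in the same direction. Over all gated cells it was at 16.5 CPM in anti-LAIR1 and 63.5 CPM in Iso-ctrl, a ratio of 0.260 (0.236 to 0.286). Within the pDC gate the ratio was 1.05 (0.953 to 1.15), and the gate held 34 cells in anti-LAIR1 and 95 in Iso-ctrl. Cox7a2l was at 437.5 and 472.4 CPM over all gated cells (0.926, 0.905 to 0.948). It was below 1 in every gate but neutrophils (1.03) and Melanoma (1.01), with 0.926 in CD8 naive cells, 0.839 in C1q macrophages, 0.880 in monocytes and 0.546 (0.390 to 0.756) in the Other monocyte or macrophage gate, where it was at 218 and 400 CPM.

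By gate the ratio of the nuclear sum was higher in lymphocyte gates (1.13 together) than in monocyte and macrophage gates (1.02 together), a difference that was not tested. Without the T cells of no subclass the lymphocyte value was 1.13 (1.127 to 1.14). By single gate it was 1.167 (1.156 to 1.177) in B cells, 1.129 (1.112 to 1.145) in CD4 naive, 1.152 (1.138 to 1.166) in CD8 naive, 1.261 (1.224 to 1.299) in CD4 experienced, 1.151 (1.129 to 1.174) in CD8 experienced, 1.157 (1.122 to 1.194) in NK and 1.035 (1.006 to 1.064) in Treg cells. The CD4 experienced value came from 74 and 96 cells and ran from 1.145 to 1.266 over the alternatives. Erythroid transcripts (Hbb-bs, Hba-a1 and Alas2) were at 7378.5 and 17.2 CPM in Treg and at 1262 and 15.8 CPM in monocytes, with 3106 of 3109 and 4191 of 4219 of their anti-LAIR1 UMIs in 1 cell each, and without those cells the ratio was 1.049 in Treg and 1.046 in monocytes. In C1q macrophages it was 0.984 (0.972 to 0.997; 1.004 with cells under 5% mitochondrial UMIs), in monocytes 1.043 (1.031 to 1.055), in the Other monocyte or macrophage gate 0.965 (0.926 to 1.005, and 1.09 as a mean share per cell) and in cDC 0.930 (0.898 to 0.964). It was 1.124 in pDC and 1.042 in the Melanoma gate. The mt- sum lay above 1 in all 14 gates, from 1.025 in the Melanoma gate to 1.415 in neutrophils, and C1q macrophages, where the nuclear set was below 1, came next to neutrophils at 1.29. With no limit on mitochondrial UMIs the mt- sum turned to 0.392 in neutrophils, 0.383 in the Melanoma gate and 0.981 in cDC, and over the alternatives 11 to 14 gates lay above 1. Neutrophils gave 1.52 for the nuclear set from 63 and 26 cells, beside 2.57 for ribosomal protein genes and 7184 and 1944 CPM of monocyte and macrophage markers in that gate, whose part in the value was not tested.

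**Figure D5:**
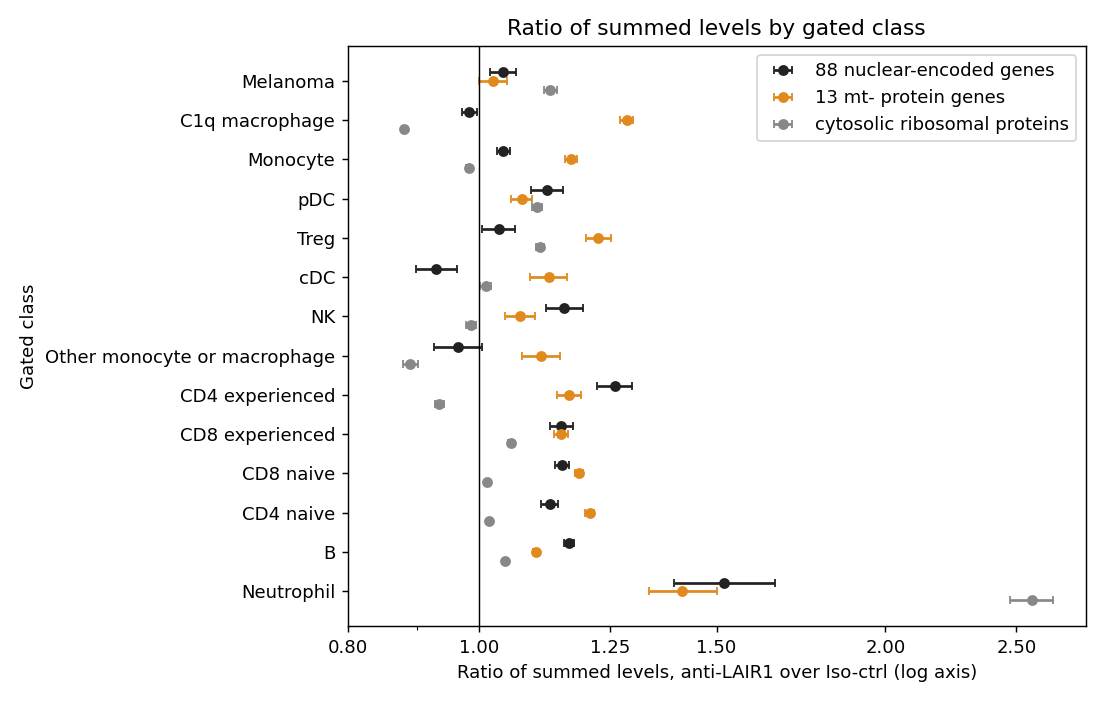
Ratio of the summed level in anti-LAIR1 over Iso-ctrl (x axis) by gate (y axis), with 95% counting intervals. The points are those of the nuclear-encoded members, the mt- protein genes and the cytosolic ribosomal proteins. The mt- points lie above 1 in all 14 gates at the 10% limit on mitochondrial UMIs (with no limit, those of neutrophils and Melanoma turn to 0.392 and 0.383), and the nuclear points of cDC (0.930), C1q macrophages (0.984) and the Other monocyte or macrophage gate (0.965) lie below 1.

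In B cells 26 of 79 members were higher by the fold (20% of all genes) and 0 lower (12.9%), with a median log2 ratio of 0.26 beside 0.05 over all genes. Uqcr11 led at 110.7 CPM in anti-LAIR1 and 61.5 CPM in Iso-ctrl, a ratio of 1.80 (1.61 to 2.02), Ndufaf2 was at 1.69, and Ndufa4 stood at 254.3 and 157 CPM (1.62). The lowest members there, Cox7a2l and Atp5sl, were at 0.957 and 0.958. Over the alternatives 17 to 34 members were higher and 0 lower. Erythroid transcripts were at 2088 and 1356 CPM in B cells, where 3 cells in each library held 99.4% and 97.4% of their UMIs, and the ratio of the nuclear sum was 1.168 without these cells.

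In CD8 naive cells 26 of 77 members were higher (24% of all genes) and 1, Atp5sl, was lower (15.3%). Ndufb3 of complex I was at 120.3 and 63.4 CPM there, a ratio of 1.90 (1.63 to 2.22), Ndufs7 was at 76.4 and 42.3 CPM (1.81, 1.50 to 2.19) and Ndufaf2 at 2.02, while Cox6a1 was at 0.907. In CD4 naive cells 22 of 75 were higher (22.4%) and 0 lower (17.3%), led by Uqcr11 and Ndufs5, both at 1.54, with the ATP synthase subunits Atp5a1 (0.893) and Atp5g3 (0.911) lowest. In CD8 experienced cells 23 of 74 were higher (21.3%) and 0 lower (20.9%), and Ndufc1 was at 128.5 and 70.2 CPM (1.83) and Ndufb7 at 1.55. Uqcrc1, a core protein of complex III (0.851), and Ndufa1 (0.911) were lowest there. All 10 dissociation stress genes were lower in anti-LAIR1 in that gate (summed ratio 0.613). The counts of higher members moved with the settings, from 8 to 30 in CD8 naive, 5 to 28 in CD4 naive and 0 to 33 in CD8 experienced cells, with the lowest of each at 1000 UMIs per gene, which fewer members reach. The lower counts ran from 0 to 1, 0 to 6 and 0 to 4. The median log2 ratios were 0.23, 0.18 and 0.24 in these 3 gates, beside 0.05, 0.03 and 0.01 over all genes, and 0.37 beside 0.08 in CD4 experienced cells.

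In C1q macrophages 3 of 76 members were higher, where 30.5% of all genes were, and 2 were lower, where 11.5% were. The lower count was the less stable, at 8 with TMM scaling, 11 as a mean share per cell, 14 with cells thinned to 1000 UMIs and 0 with cells under 5% mitochondrial UMIs, while the higher count ran from 1 to 5. The median log2 ratio of the members was -0.02 while that of all genes was 0.11. The higher members were Ndufaf2 (1.68), Atp5k (1.28) and Ndufaf3 (1.252), and the lower ones Ndufaf7 (0.747, from 30 and 22 UMIs) and Ndufab1, the mitochondrial acyl carrier protein (0.787). Atp5d followed at 0.8165. The gate was deeper in anti-LAIR1, with a median of 9952 UMIs per cell against 5856.5, and ribosomal protein genes were at 0.881. In monocytes 6 of 76 were higher (20% of all genes) and 0 lower (14.6%), with Ndufa5 at 1.495 and Ndufs7 at 107.1 and 74 CPM (1.45), and the median log2 ratio was 0.07 beside 0.02. Over the alternatives the higher count ran from 2 to 12 and the lower count from 0 to 8, the upper ends with cells thinned to 1000 UMIs. Atp5sl (0.859) and the complex I subunit Ndufv1 (0.867) were the lowest members there.

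The mt- genes were unequal among themselves. In all gated cells mt-Nd3 was at 924 and 695 CPM (1.33), mt-Co3 at 7623 and 6115 CPM (1.246), mt-Nd4l at 402 and 324 CPM (1.24) and mt-Nd6 at 91.2 and 74.1 CPM (1.23). A middle group held mt-Nd1 (1.16), mt-Co1 (1.14), mt-Atp6 (1.14), mt-Co2 (1.13) and mt-Cytb (1.12), with mt-Nd5 (1.05) and mt-Nd2 (1.04) closer to 1. mt-Nd4 was at 2569 and 2572 CPM (0.999) and mt-Atp8 at 182 and 200 CPM (0.907, 0.876 to 0.940), so 11 of 13 lay above 1. mt-Atp8 and mt-Atp6, and mt-Nd4l and mt-Nd4, lie on shared transcripts, and the split of 3' reads within these pairs is uncertain. In C1q macrophages mt-Co3 was at 1.36 and mt-Nd1 at 1.32 while mt-Atp8 was at 0.588. The mt- UMIs per nuclear UMI were 2.73 in anti-LAIR1 and 2.60 in Iso-ctrl over all gated cells, a ratio of 1.05 (1.048 to 1.053), with 0.944 in B cells and 1.31 in C1q macrophages. With cells limited to under 5% mitochondrial UMIs the ratio over all gated cells was 0.965, on the other side of 1.

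Other genes of the pathway were read in the same way, over all gated cells, where 20.6% of all genes were higher by the fold, 12.6% were lower and 57.3% lay above 1. For complex II, the succinate dehydrogenase that the name rule leaves out, 3 of 4 genes lay above 1 and the sum gave 1.10, with Sdhc at 1.29, Sdhd and Sdha at 1.12 and Sdhb at 0.995. Of 6 genes of complex III and cytochrome c that the name rule leaves out, the complex III subunit Cyc1 among them, 5 lay above 1. Uqcc2 was at 1.253, Bcs1l at 1.19, Uqcc3 at 1.14 and Cycs, cytochrome c itself, at 0.921. Of 7 further complex I assembly factors 2 were higher by the fold (Nubpl at 1.46 and Ecsit at 1.30) and 1 was lower (Tmem186 at 0.7755), counts near the shares of all genes, with Acad9 at 0.972. Of 17 complex IV assembly factors 2 were higher and 2 lower, with Coa3 at 1.45, Coa4 at 1.405, Coa7 at 0.741 and Cox11 at 0.754. In the tricarboxylic acid cycle, which feeds the chain, 12 of 14 genes lay above 1 and 1, Idh2, was higher by the fold at 1.26, with Fh1 at 1.17, Dld at 0.886 and Dlst at 0.9735.

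The proteins of the mitochondrial ribosome, which translates the mt- messages, gave 59 of 76 genes above 1, with 16 higher, a share near the 20.6% of all genes, and 0 lower (12.6% of all genes), and a summed ratio of 1.12. Mrpl42 (1.515) and Mrps27 (1.415) were the highest and Mrpl50 (0.819) and Mrpl32 (0.862) the lowest. Their sum was at 1.15 in lymphocyte gates, 1.22 in CD8 experienced cells, 1.065 in monocytes and 1.02 in C1q macrophages. Carriers and pores of the mitochondrial membranes gave 4 of 7 genes above 1 and a sum of 0.999, with Vdac2 at 1.13, the ADP/ATP carrier Slc25a4 at 1.06, the phosphate carrier Slc25a3 at 0.929 and Vdac1 at 0.909. Cytosolic ribosomal proteins gave 66 of 103 above 1, 7 higher and 4 lower, from Rps6kc1 (1.60) and Rpl23a-ps3 (1.42), a kinase and a pseudogene caught by symbol, to Rpl15 (0.720) and Rps27rt (0.621).

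Of 12 regulators of mitochondrial genes 6 lay above 1, with 2 higher (Myc at 1.36 and Tfb1m at 1.30) and 2 lower, counts near the 20.6% and 12.6% of all genes. Ppargc1a, the coactivator PGC-1 alpha, was at 2.88 and 14.8 CPM (0.195), and 55 of its UMIs in anti-LAIR1 and 409 in Iso-ctrl lay in the Melanoma gate. Gabpb1, a subunit of the ETS-family factor GABP, was at 18.3 and 29.2 CPM (0.628), with 20.2 and 42.3 CPM in CD4 naive cells, 19.5 and 33.3 CPM in CD8 naive cells and 19.4 and 20.6 CPM in B cells.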

How the data were processed

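The deposited values were UMI counts per gene and barcode, made by the authors with Cell Ranger 5.0.0 on mm10 per the labels, for 2 libraries of the 10x single cell 3' chemistry. A barcode was kept from 200 genes and 500 UMIs upward when fewer than 10% of its UMIs were mitochondrial, and the barcodes with the highest doublet scores (scanpy 1.11.5, 0.8% per 1000 barcodes) were removed, 575 in anti-LAIR1 and 280 in Iso-ctrl. Cells were gated by marker UMIs (at least 2 genes and 3 UMIs of a list and 5 times those of each other list). Trac and the gamma-delta constant genes were not in the gene list used here, and gates under 20 cells were left out. A marker used in gating naive T cells is not reported here.

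UMIs were summed per gate and library and divided by the total of the gate. With 1 library per group no test was possible. A call was a level at least 25% higher or 20% lower among genes with at least 50 UMIs over the compared groups. Named genes were the 13 mt- genes, the 2 members of highest level in each complex, the 5 highest and 5 lowest ratios over all gated cells and the 2 highest and lowest in each gate of 100 cells (from 100 UMIs), isoforms, and the 2 highest and lowest genes of each other list. The leaders of contrasts within a library (by the lower of both ratios) and further examples by gate were chosen after their values were seen. The members and lists were chosen with earlier results of these data known. Processed pseudogenes may share reads with some members, and counts of such members are uncertain. The list of cytosolic ribosomal proteins was taken by symbol and also holds kinases named Rps6k and pseudogenes. Intervals used exact Poisson and binomial limits (scipy 1.17.1), the scaling alternative edgeR 4.0.16. The calculation was tested on simulated data.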

Additional observations from a re-analysis of the deposited data

Results flagged for a closer look

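The summed nuclear-encoded set was below 1 in cDC (0.930, from 42 and 24 cells) and in C1q macrophages (0.984, from 231 and 136 cells, and 1.004 with cells under 5% mitochondrial UMIs), with intervals below 1, while 11 other gates lay above 1 with intervals above it. In cDC the complex I sum gave 0.838 (0.782 to 0.898) and the mt- sum 1.13. In C1q macrophages the complex I sum gave 1.01, complex IV 0.972 and the mt- sum 1.29. Each value compares 1 library with 1 library, and the difference between gates was not tested.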

How the results depend on the processing

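No paired analysis was possible because each group was 1 library, and for the same reason no replicate could be left out. Settings that were added after the data were seen are the use of all kept cells without gates, the removal of the Melanoma gate, of T cells with no subclass or of cells with 10 or more erythroid UMIs, and a minimum of 1000 UMIs per gene.

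Every alternative kept the nuclear sum, the mt- sum and the sum of each complex above 1 in all gated cells. The nuclear sum (1.085) became 1.097 with under 5% mitochondrial UMIs, 1.105 with mt- and ribosomal UMIs out of the total, 1.052 with TMM scaling, 1.099 as a mean share per cell, 1.114 with cells thinned to 1000 UMIs, 1.108 with common gate weights, 1.095 without gates and 1.11 without the Melanoma gate. The mt- sum (1.14) became 1.097 with no mitochondrial limit, 1.059 at 5%, 1.134 without doublet removal, 1.161 with the reduced total, 1.105 with TMM, 1.144 per cell, 1.131 with a stricter gate and 1.154 with common weights. Complex I (1.133) became 1.146 at 5%, 1.154 with the reduced total, 1.098 with TMM, 1.15 per cell, 1.148 thinned, 1.155 with common weights, 1.142 without gates and 1.158 without the Melanoma gate. In the same order complex IV (1.072) became 1.088, 1.091, 1.039, 1.095, 1.103, 1.105, 1.084 and 1.108. Complex III (1.068) became 1.082, 1.088, 1.036, 1.084, 1.11, 1.091 and, without the Melanoma gate, 1.095. The ATP synthase (1.078) became 1.089 at 5%, 1.098 with the reduced total, 1.045 with TMM, 1.112 thinned, 1.093 with common weights, 1.088 without gates and 1.095 without the Melanoma gate.

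Without T cells of no subclass the nuclear sum was 1.072, the mt- sum 1.131, the mt- UMIs per nuclear UMI 1.055, the median log2 ratio 0.126, complex I 1.115, complex III 1.055 and complex IV 1.052.

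The mt- UMIs per nuclear UMI (1.05) turned to 0.965 with under 5% mitochondrial UMIs and became 1.011 with no limit, 1.044 without doublet removal, 1.041 per cell, 1.023 thinned, 1.045 with the stricter gate, 1.042 with common weights, 1.042 without gates and 1.029 without the Melanoma gate. The median log2 ratio of the members (0.152) became 0.167 at 5%, 0.158 without doublet removal, 0.178 with the reduced total, 0.107 with TMM, 0.171 per cell, 0.175 thinned, 0.134 with the stricter gate, 0.177 with common weights, 0.162 without gates, 0.182 without the Melanoma gate and 0.139 with 1000 UMIs per gene. The count of higher members was 17 in place of 11 when thinned, and the count of lower members 0 in place of 1 with common weights. Gates with a median above 0 were 6 in place of 11 with 1000 UMIs per gene. Part of that drop is gates where no member reached 1000 UMIs, which have no median. Among gates with a value only the Melanoma gate turned below 0 (-0.129). Cox6a2 in pDC was 1579.5 CPM in anti-LAIR1 at 5% and 2176.5 CPM thinned, and 2426.3 and 2232.2 CPM in the 2 libraries with the reduced total. TMM scaling moved the median of all genes by -0.13 on the log2 scale in C1q macrophages and -0.14 in CD4 experienced cells. The order of gates kept 80.2% or more of its pairs in anti-LAIR1 and 89.0% or more in Iso-ctrl.

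Within gates 29 of 520 values crossed 1 (0 for log2). In 16 the reported value's counting interval excluded 1 (a median log2 ratio was given the interval width of the nuclear sum). At 5% these were the mt- sum in B cells (0.99), pDC (0.998) and the Melanoma gate (0.940), the mt- per nuclear ratio in CD8 naive cells (0.950) and the nuclear sum in C1q macrophages (1.004). With no mitochondrial limit the mt- sum was 0.981 in cDC, 0.392 in neutrophils and 0.383 in the Melanoma gate. In the Other monocyte or macrophage gate the mt- sum and the mt- per nuclear ratio were 0.99 and 0.908 per cell, and 0.99 and 0.978 thinned. Thinning gave 1.015 for the mt- per nuclear ratio in neutrophils and a median of -0.000387 in monocytes. The median was -0.00755 in Treg with 200 UMIs per gene and -0.129 in the Melanoma gate with 1000. In the other 13 the interval held 1. They were the mt- per nuclear ratio in CD8 experienced cells under 5 settings (up to 1.048) and in the Melanoma gate per cell (1.204), the C1q macrophage median at 5% (0.00822), and the nuclear sum and median of the Other monocyte or macrophage gate without doublet removal (1.003 and 0.0307), per cell (1.09 and 0.131) and thinned (1.012 and 0.0542). The causes were not tested. A single library per group limits all comparisons between the antibodies.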

Other observations

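Erythroid transcripts (Hbb-bs, Hba-a1 and Alas2) were at 884.5 CPM in anti-LAIR1 and 351 CPM in Iso-ctrl over all gated cells. Cells with 10 or more of these UMIs numbered 6 in anti-LAIR1 and 4 in Iso-ctrl and held 98.85% and 93.2% of them.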
